A study of Homo sapiens with 3 samples.

Results

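Zinc finger protein genes were examined in 3 RNA sequencing libraries of PLC, an established line of human liver cancer cells. The libraries came from cells labelled NTC, shHKDC1 and shRBBP5, where the last 2 carry a knockdown of HKDC1, a hexokinase family gene, or of RBBP5, a core subunit of the complexes that methylate histone H3 at lysine 4. The labels give no genotype, time or dose beyond this, and name no clone or culture. The study asked whether HKDC1 and RBBP5 regulate gene expression. Members were the symbols starting with ZNF, ZFP, ZKSCAN or ZSCAN and a digit that had coding RefSeq rows (accessions starting NM_) in the deposited table and a mean of at least 1 CPM over the 3 libraries. CPM are counts per 1000000 after TMM scaling of the library sizes. Of 225 such symbols with a row, 139 were members, 86 fell below the level, and 24 of those 86 had 0 in all libraries. RefSeq lists 565 family symbols with a coding transcript, so many had no coding row in the table and are not described here. The members made up 14.4% of the 967 named genes measured. The level was chosen on the same values as are described below, and a gene low in 1 library passes it only through the other libraries.

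With 1 library in each group no difference had a replicate check, and no test between groups was made. In bulk RNA, fewer cells with a transcript and less of it per cell cannot be told apart. Differences are given as log2 ratios with exact 95% Clopper-Pearson intervals in brackets, which cover counting error only and assume that 1 sequenced fragment is worth 4 units of the table. A gene was called higher or lower when the ratio was at least 1 in size (2-fold) and the interval excluded 0. Where 3 levels of a gene are given without names, they stand in the order NTC, shHKDC1, shRBBP5. Totals corresponded to 40437578 fragments in NTC, 28889040 in shHKDC1 and 38633478 in shRBBP5, and the median member had 145, 73 and 111 of them. HKDC1, RBBP5 and the hepatocyte marker ALB had 0 rows of their own, so the knockdowns were not checked here. Of 14 hepatocyte markers only fibrinogen FGB had coding rows, so the levels of the others are not known here. FGB was measured at 2.41 CPM in NTC, 0.600 in shHKDC1, and 2.30 with the RBBP5 knockdown. Of 7 fibroblast markers 6 had rows and only PDGFRB was measured, at 0.605, 1.48 and 1.56 CPM. Coding rows existed for 4 of 5 blood cell and 4 of 4 endothelial markers, and 0 of either kind were measured. The part of these markers in the results was not tested.

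Most human zinc finger genes encode DNA-binding proteins with tandem C2H2 fingers, each folded around a zinc ion held by a pair of cysteines and a pair of histidines. The largest group also carries a KRAB box, which recruits TRIM28 and through it histone methyltransferases to silence retrotransposons and other targets. A smaller group carries a SCAN domain, through which the proteins pair. Many of these genes arose by tandem duplication and lie side by side, above all on chromosome 19.

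In GENCODE v29 coding sequences, 138 of the 139 members had at least 1 C2H2 finger by pattern search, with a median of 12 and a highest count of 36. The KRAB pattern was found in 113 members and the SCAN pattern in 7, and 19 had neither. The SCAN pattern was also found in 7 of 7 ZKSCAN genes and 16 of 21 ZSCAN genes of the whole annotation, and the KRAB pattern in 15 of 18917 genes outside the family. The KRAB pattern found 0 of 7 ZKSCAN genes, so boxes of that diverged kind were missed. Boxes of other genes may have been missed too, so a member with neither pattern may still have a KRAB box. In the RefSeq annotation of GRCh38.p14, 81 members lay on chromosome 19.

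In RefSeq promoters of GRCh38.p14 (300 bases, the last 50 of them past the gene start), 125 members had an entry, and 51.2% of these held CCGGAA, the core bound by ETS transcription factors, on either strand. The share was 22.9% among 15843 protein-coding promoters and 15.2% among 653 other named genes measured here. CCAAT stood in 52% of member promoters and 36.4% of all, and TATAAA in 2.4% and 9.63%. Members are related by duplication, so these promoters are not independent of each other. For only 95 of the 125 were the 50 bases past the start found in a GENCODE transcript of the gene. The 3 promoters below are shown because ZNF677 was the member called higher in shHKDC1, ZNF606 was called lower in both knockdowns, and ZNF222 had the highest shHKDC1 ratio in the longest run of neighbouring members. Each holds the 250 bases before the start, written 5′ to 3′ on the gene's strand, with the ETS core in capitals, read on the opposite strand in ZNF222 as TTCCGG.
ZNF677, chr19:53254824-53255073, minus strand: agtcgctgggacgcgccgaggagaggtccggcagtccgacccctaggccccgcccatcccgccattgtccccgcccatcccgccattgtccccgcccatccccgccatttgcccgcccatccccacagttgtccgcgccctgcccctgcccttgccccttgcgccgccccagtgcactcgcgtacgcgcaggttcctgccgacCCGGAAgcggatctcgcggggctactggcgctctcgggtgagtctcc
ZNF606, chr19:58002821-58003070, minus strand: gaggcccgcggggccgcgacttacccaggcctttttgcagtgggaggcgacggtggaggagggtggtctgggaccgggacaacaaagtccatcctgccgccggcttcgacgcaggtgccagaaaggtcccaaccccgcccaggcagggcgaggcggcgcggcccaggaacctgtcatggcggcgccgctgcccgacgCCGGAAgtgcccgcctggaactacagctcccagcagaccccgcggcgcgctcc
ZNF222, chr19:44025129-44025378, plus strand: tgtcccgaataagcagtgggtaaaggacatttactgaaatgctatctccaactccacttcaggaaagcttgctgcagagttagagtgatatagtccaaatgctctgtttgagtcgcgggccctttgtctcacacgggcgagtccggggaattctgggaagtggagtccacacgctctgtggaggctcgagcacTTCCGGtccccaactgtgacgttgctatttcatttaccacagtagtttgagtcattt
The core began 47 bases before the start in ZNF677, 53 in ZNF606 and 57 in ZNF222. The windows of ZNF677 and ZNF606 were rich in CpG, with 28 and 27 in the 250 bases, while ZNF222 had 10. In the full windows, 6 of the 12 members with an entry that were called lower in shHKDC1 held the core, and 57 of the 112 called neither way.

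Levels on these coding rows were low throughout, as were those of other named genes, with a median of 2.97 CPM in NTC. Anonymous loci, which carry no gene name, had a median of 28.4 CPM in NTC. Reads of the family within such loci were not looked for, so these levels describe the named rows only. The median member had 3.31 CPM in NTC, 2.82 with shHKDC1 and 2.79 with shRBBP5, and the sum over members was 568, 466 and 479 CPM. NTC was the highest of the 3 libraries for 75 members and the lowest for 17. Per length of the GENCODE transcript with the longest coding sequence, ZNF727 stood highest at 6.19 CPM per kb in NTC, 4.27 in shHKDC1 and 4.53 in shRBBP5, followed by ZNF100 with 4.97, 5.09 and 3.85. ZNF778 followed with 4.28, 4.63 and 4.39 CPM per kb. These 3 averages lay close together, and their order has no replicate check. By CPM alone, ZNF778 was the most abundant (15.4, 16.7 and 15.8 CPM), and ZNF37A (13.4, 8.21 and 8.23 CPM) and ZNF558 (12.8, 7.97 and 6.94 CPM) were both highest in NTC. At the level that chose the members, ZNF485, ZNF730 and ZNF630 were just inside with means of 1.03, 1.07 and 1.07 CPM. ZNF808, ZNF442 and ZNF701 were just outside with 0.996, 0.994 and 0.959 CPM.

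In shHKDC1 against NTC, 1 member was called higher, 16 lower and 122 neither way. Among all 967 named genes 8.48% were called higher and 24.3% lower, and among all 13464 features 8.03% and 12.2%. The members' shares were 0.72% higher and 11.5% lower, so the share called lower was below that of named genes and near that of all features. The median ratio of the members was −0.31, against −0.46 for the 828 other named genes and −0.03 for all features, anonymous loci included. With total-count scaling, which lowers the median of all features to −0.31, 32 members were called lower. Nearly equal shares lay below 0, 66.9% of members and 67.9% of the other named genes. The lower and upper quartiles of the members were −0.68 and 0.07, and those of the other named genes −1.05 and 0.21. The plot of cumulative shares gives all 3 comparisons.

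**Figure D1:**
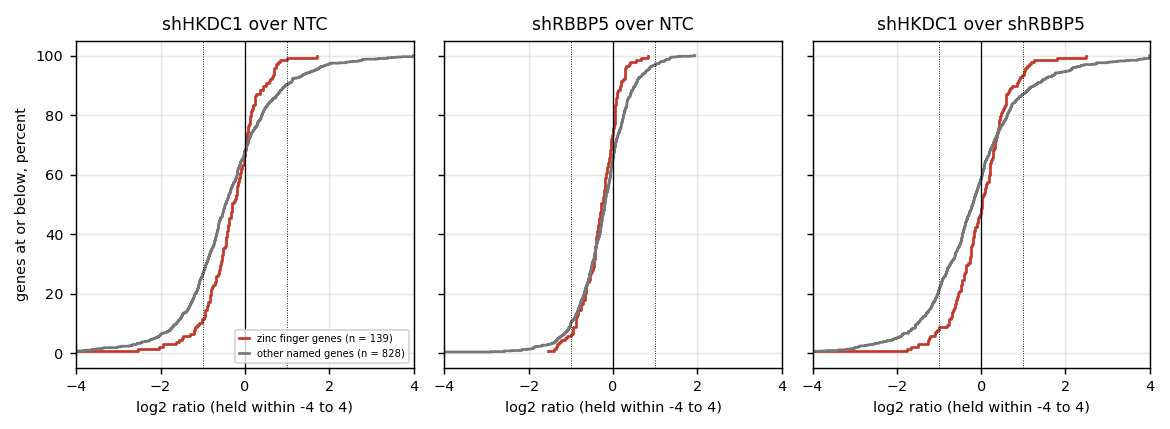
Cumulative share of genes (percent) against the log2 ratio for the 139 zinc finger genes (red) and 828 other named genes (grey), with dotted lines at a 2-fold difference. The red curve is steeper, and in every comparison it crosses the −1 line lower, at a smaller share of genes.

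ZNF677, a KRAB gene reported to be silenced by promoter methylation in lung cancer, was the member called higher. It stood at 1.55 CPM in NTC, 5.07 with shHKDC1 and 0.909 with shRBBP5, on 68, 131 and 36 fragments. The shHKDC1 library was thus the highest, with a ratio of 1.71 [1.27 to 2.15] to NTC. ZNF222 just missed the call at 1.39, 2.76 and 1.52 CPM (0.99 [0.47 to 1.5]). It was called with DESeq2 size factors (1.02) and with upper-quartile factors (1.08), but not with total-count scaling.

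Among the KRAB genes called lower, ZNF729, with 34 fingers, had 2.0 CPM in NTC, 0.339 with shHKDC1 and 1.08 with shRBBP5. Only 9 fragments lay behind the shHKDC1 value, and its ratio of −2.54 had a wide interval [−3.70 to −1.54]. ZNF846 stood at 2.23, 0.716 and 2.05 CPM (−1.63 [−2.50 to −0.95]), low in shHKDC1 alone. ZFP1 had 5.78, 2.04 and 4.35 CPM (−1.5 [−1.95 to −1.06]). ZNF606 had 3.27, 1.11 and 1.24 CPM (−1.55 [−2.17 to −0.96]), low in both knockdowns.

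Among members in which the KRAB pattern was not found, ZNF292, a very large zinc finger protein linked to intellectual disability, stood at 8.02 CPM in NTC, 1.95 with shHKDC1 and 4.16 with shRBBP5, on 351, 50 and 166 fragments. In each library 100% of the coding units of ZNF292 lay on a single row, but not on the same row in every library. How reads were assigned between its coding rows was not tested. With these rows summed, its shHKDC1 level was 4.09-fold below NTC (−2.03 [−2.51 to −1.62]), and shRBBP5 lay between the others. ZNF236, with 30 fingers, had 11.3, 4.12 and 6.74 CPM and the same order of libraries (−1.46 [−1.78 to −1.16]). ZKSCAN2, whose family also has KRAB boxes that the pattern missed, was the member with the SCAN pattern called lower, at 9.44, 4.10 and 8.52 CPM (−1.2 [−1.52 to −0.89]).

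The other 7 by coding rows had ratios from −1.3 to −1.02. ZNF180 stood at 4.76, 1.94 and 2.57 CPM in NTC, shHKDC1 and shRBBP5, and ZNF234 at 3.63, 1.64 and 2.28 CPM, both with shRBBP5 between the others. ZNF182 had 6.20, 2.72 and 4.62 CPM in the same order, and ZFP30, among the most abundant members, had 11.2, 5.52 and 8.58 CPM. ZNF862, the single member in which no C2H2 finger was found, was at 2.56, 1.11 and 2.64 CPM. ZNF704, with 1 finger by the pattern, was at 9.72, 4.56 and 10.9 CPM. In these last genes shRBBP5 lay close to NTC and shHKDC1 alone was low. ZNF320 was at 3.33, 1.64 and 2.66 CPM. Nearly all (99.5%) of the 75-base stretches of the ZNF320 transcript used here also occur in transcripts of another gene, so its value is uncertain. The calls of ZFP30 and ZNF320 ended with DESeq2 size factors (−0.99 for each) and with upper-quartile factors, where that of ZNF704 ended too. By class, 11 of 113 members with the KRAB pattern, 1 of 7 with SCAN and 4 of 19 with neither were called lower on coding rows. The class medians were −0.24, −0.18 and −0.45. By number of fingers the medians were 0.06 for the 8 members with 1 to 5, −0.33 for 42 with 6 to 10, −0.21 for 53 with 11 to 15 and −0.34 for 35 with more. The plot of called members shows the levels and ratios side by side.

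**Figure D2:**
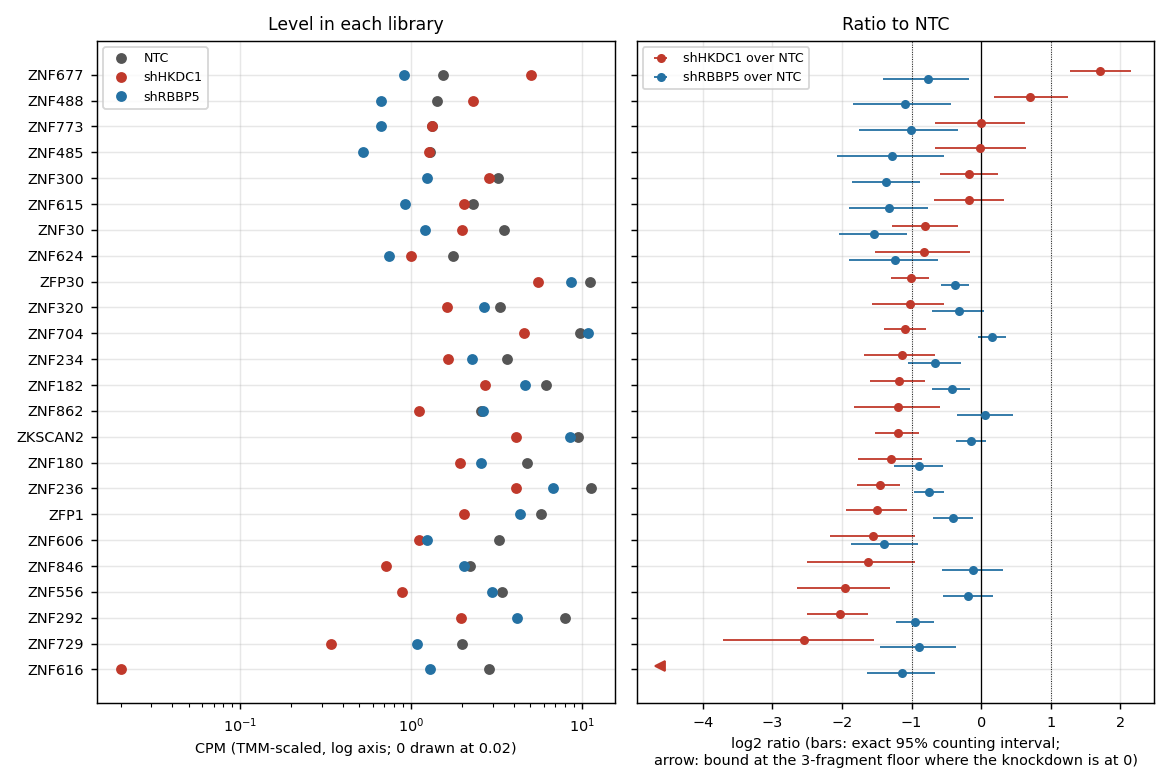
Members called in either knockdown against NTC: CPM in each library on a log axis (left, a value of 0 drawn at 0.02) and log2 ratios to NTC with exact 95% counting intervals (right). Shown are 1 gene called higher, ZNF677, and 23 called lower in shHKDC1, shRBBP5 or both; the arrow marks the bound for ZNF616, whose coding row was at 0 in shHKDC1.

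For 2 of the 16 members called lower in shHKDC1, a noncoding row (accession starting NR_) of the same gene was higher there than in NTC. The coding row of ZNF616 was at 2.84 CPM in NTC, 0 with shHKDC1 and 1.285 with shRBBP5, at least 24.5-fold lower in shHKDC1 against a floor of 3 fragments in that library (0.116 CPM). Its noncoding row was at 0, 2.65 and 0.689 CPM. Both together gave 2.84, 2.65 and 1.97 CPM, a ratio of −0.10 [−0.55 to 0.33] in shHKDC1. ZNF556 stood at 3.42 CPM in NTC, 0.881 with shHKDC1 and 3.0 with shRBBP5 on its coding rows (−1.95 [−2.65 to −1.30] in shHKDC1), while its noncoding row was at 0, 1.37 and 0 CPM. Summed, its ratio was −0.60 [−1.07 to −0.16], short of the call.

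ZNF778 showed the opposite arrangement. Its coding rows were nearly level, with a ratio of 0.11 [−0.06 to 0.29], and its noncoding row was at 9.30 CPM in NTC, 0 with shHKDC1 and 10.2 with shRBBP5. Summed, it was at 24.7, 16.7 and 26.0 CPM (−0.57 [−0.73 to −0.40] in shHKDC1). With both kinds of row summed for all members, 1 was higher and 15 lower in shHKDC1, ZNF519 having joined (−1.05). Noncoding rows existed for 24 members. They held 4.88%, 4.24% and 5.32% of the RefSeq units of all 139 members in NTC, shHKDC1 and shRBBP5. Summing was chosen after the values were seen, and how reads were assigned between the rows was not tested.

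**Figure D3:**
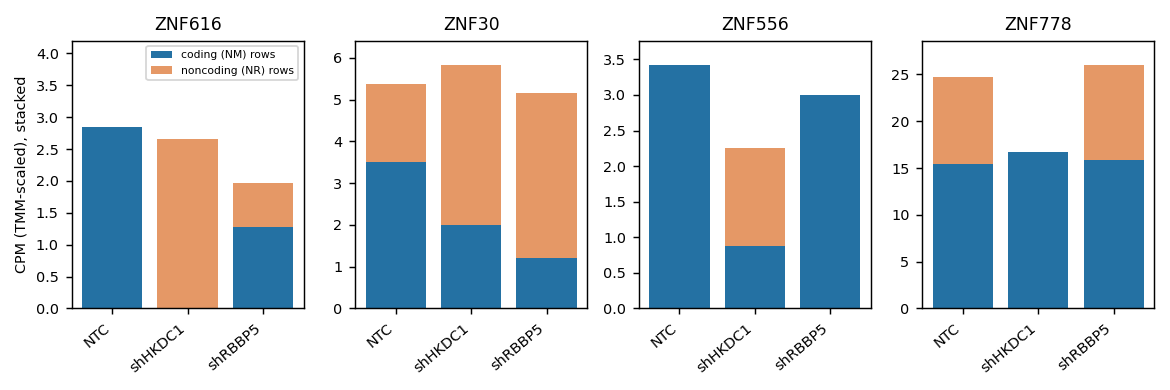
Stacked CPM of the coding (blue) and noncoding (orange) RefSeq rows of ZNF616, ZNF30, ZNF556 and ZNF778 in each library, 1 library per bar and no error bars. The coding part of ZNF616 is at 0 in shHKDC1 while the bar as a whole is at 2.65 CPM, and ZNF778 lacks its noncoding part in shHKDC1.

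In shRBBP5 against NTC, 0 members were called higher, 9 lower and 130 neither way. Among named genes 2.48% were called higher and 9.31% lower, and among all features 1.79% and 2.76%. The members' share called lower, 6.47%, lay between these backgrounds. The median ratio of members was −0.28 and that of other named genes −0.19, with 74.1% and 65.1% below 0. The comparison with NTC shares its control library with that of shHKDC1, so the values are given side by side and no overlap is drawn from them.

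ZNF606 was at 1.24 CPM in shRBBP5 against 3.27 in NTC (−1.40 [−1.88 to −0.91]), close to its ratio in shHKDC1. ZNF300 stood at 3.21, 2.85 and 1.25 CPM in the order NTC, shHKDC1, shRBBP5, and was low in the last alone (−1.36 [−1.86 to −0.89]). ZNF615 had 2.31, 2.04 and 0.921 CPM (−1.32 [−1.90 to −0.76]) and ZNF485 1.29, 1.27 and 0.526 CPM (−1.29 [−2.08 to −0.53]), again with the 2 other libraries close together. ZNF624 was at 1.77, 0.997 and 0.746 CPM (−1.24 [−1.90 to −0.62]).

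ZNF488, which promotes the maturation of oligodendrocytes and has 2 fingers and no KRAB match by the patterns, was at 1.43 CPM in NTC, 2.31 with shHKDC1 and 0.664 with shRBBP5. It was called lower in shRBBP5 (−1.10 [−1.84 to −0.44]), on 26 fragments, and stood above NTC in shHKDC1 without being called (0.70 [0.18 to 1.25]). These are sums over its coding rows. In each library 100% of its units lay on a single row, but not on the same row in every library. ZNF773 was at the edge of the call (−1.0 [−1.75 to −0.33]) and lost the call under a pseudocount of 5 and under DESeq2 scaling. Of the 9 members called lower, 8 had the KRAB pattern, as did 113 of all 139 members (81.3%).

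The other 2 called lower were ZNF30 and ZNF616, and both calls ended when noncoding rows were added. ZNF30 had 3.50 CPM in NTC, 1.99 with shHKDC1 and 1.2 with shRBBP5 on coding rows, and 1.87, 3.83 and 3.95 on its noncoding row. Its coding ratio of −1.54 [−2.04 to −1.06] in shRBBP5 became −0.06 [−0.33 to 0.22] for the sum. The coding ratio of ZNF616 was −1.14 [−1.65 to −0.67] and its summed ratio −0.53 [−0.94 to −0.10]. With rows summed, 7 members were lower and 0 higher.

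Compared directly, shHKDC1 exceeded shRBBP5 by the call for 9 members and lay below it for 11, while 119 were neither. The shares were 12% and 19.1% among named genes and 7.66% and 10.2% among all features. The median of the members was 0.02 and that of other named genes −0.20, and the members' median turned to −0.19 with total-count scaling. The split also moved with the scaling, to 3 higher and 13 lower with total counts and to 12 higher and 8 lower with upper-quartile factors. ZNF677 had the largest positive ratio, 5.57-fold (2.48 [1.95 to 3.06]), followed by ZNF488 (1.80 [1.15 to 2.56]). ZNF485 (1.26), ZNF300 (1.19), ZNF615 (1.15), ZNF239 (1.09), ZNF215 (1.05), ZFP28 (1.03) and ZNF773 (1.01) were nearer the limit, and with total-count scaling all of these but ZNF485 lost the call. ZNF239, at 3.85 CPM in NTC, 6.07 with shHKDC1 and 2.85 with shRBBP5, was called in neither knockdown against NTC. ZNF215 had 1.25, 2.23 and 1.08 CPM and ZFP28 2.75, 2.87 and 1.41 CPM, and neither was called against NTC.

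On the lower side, ZNF616 was at least 11.1-fold lower in shHKDC1 on its coding row, but 0.43 [−0.08 to 0.90] with its noncoding row added. ZNF556 was at −1.76 on coding rows and −0.41 for the sum. ZNF729 (−1.65 [−2.85 to −0.57]) and ZNF846 (−1.51 [−2.38 to −0.81]) were low in shHKDC1. ZNF776, with 2.63, 1.72 and 4.15 CPM (−1.27 [−1.80 to −0.80]), and ZNF709, with 1.59, 1.21 and 2.80 CPM (−1.21 [−1.85 to −0.64]), were highest in shRBBP5, and neither was called against NTC. Most 75-base stretches of ZNF709 (92.0%) occur in transcripts of another gene, which leaves its value uncertain. ZNF704 was at −1.25 and ZNF862 at −1.24, each close to NTC in shRBBP5, and ZKSCAN2, ZFP1 and ZNF292 completed the 11. The calls of these last 3 ended with upper-quartile factors, where ZNF227, ZNF284 and ZNF551 were called higher.

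Neighbouring genes were then set side by side. Runs were taken as successive protein-coding genes of the RefSeq annotation (GRCh38.p14) that all carry a family symbol, and 94 members shared a run with another member. Of the 7 runs with at least 5 members, the longest held 11, from ZNF155 to ZNF180 on chromosome 19. In shHKDC1, 7 of these 11 lay above NTC, where 46 of all 139 members did, but with total-count scaling 5 of the 11 and 18 of the 139 lay above, ZNF225 and ZNF230 having changed side. ZNF222 (0.99), ZNF284 (0.75), ZNF227 (0.69), ZNF155 (0.59) and ZNF235 (0.58) stood highest, while ZNF180 (−1.30) and ZNF234 (−1.14) in the same run were called lower. ZNF227 had 6.47 CPM in NTC, 10.5 with shHKDC1 and 5.33 with shRBBP5. Of ZNF284, 42.9% of the 75-base stretches occur in another gene, and of ZNF222 15.2%. The run was singled out after its values were seen, as were its genes, and its ratios in shRBBP5 ran from −0.89 to 0.13.

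In the run of 6 from ZNF613 to ZNF616, also on chromosome 19, the shRBBP5 median was −0.70, with 5 of 6 below NTC and 2 called lower, where 103 of all 139 members were below and 9 called. ZNF616 is part of this run, and its call rests on the coding row alone. The run with ZNF91, a KRAB gene that represses a family of retrotransposons, had all 7 members below NTC in shRBBP5, by 0.04 to 0.89 on the log2 scale, and none of them was called. In the run from ZNF136 to ZNF564, 4 of 7 were above NTC in shRBBP5, with a median of 0.02, against 2 of 7 with total-count scaling and 3 of 7 with upper-quartile factors. In this run 92.0% of the 75-base stretches of ZNF709 and 83.7% of those of ZNF564 occur in other genes. The shares were 36.7% for ZNF799, 28.2% for ZNF443 and 0% for ZNF136, ZNF44 and ZNF563. Medians of the other 4 runs with at least 5 members ran from −0.28 to −0.10. ZNF91 itself had 6.30, 5.45 and 6.13 CPM and was called in neither knockdown. ZNF10, whose KRAB box is used in engineered repressors, stood at 3.10, 3.29 and 4.52 CPM, highest in shRBBP5 (0.54 [0.21 to 0.87]) without being called. Both were named after their values were seen.

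**Figure D4:**
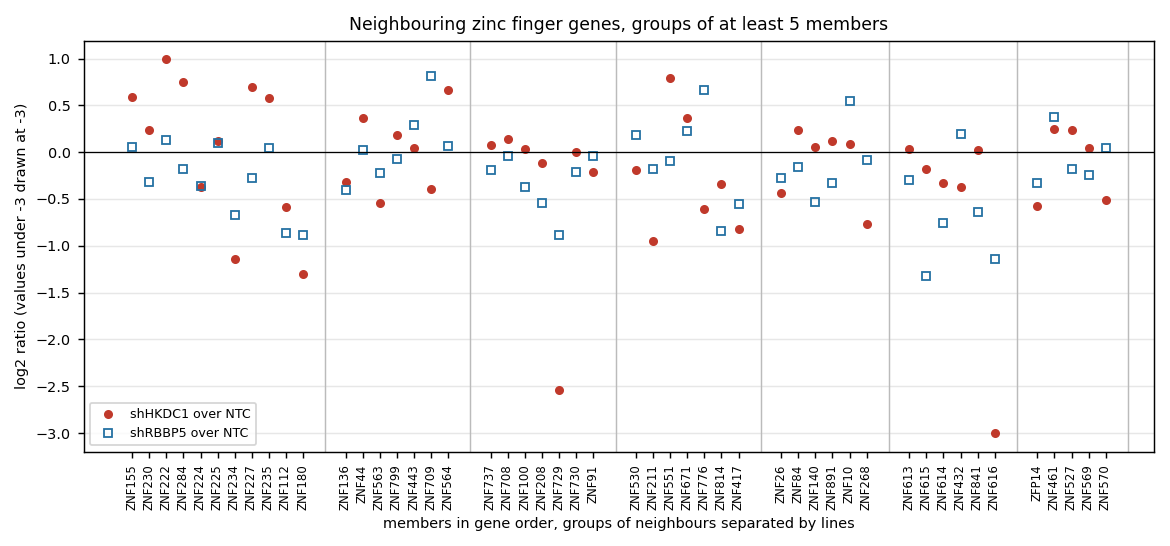
Log2 ratios to NTC of the members in the 7 runs of neighbouring zinc finger genes with at least 5 members, in gene order, for shHKDC1 (filled) and shRBBP5 (open); 1 library per group and no error bars, with ZNF616 drawn at −3. In the first run 7 of 11 filled points lie above 0 (5 with total-count scaling), and in the third run all 7 open points lie below 0.

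The machinery that KRAB proteins recruit could not be described, since 0 of the 23 listed co-repressor genes, TRIM28 and SETDB1 among them, had coding rows. Of 130 genes in other C2H2 families, such as the KLF, ZBTB and PRDM genes, 52 had rows and 22 were measured. Of these 22, 4 were called higher and 6 lower in shHKDC1 (median −0.64), and 1 and 2 in shRBBP5 (median −0.28). In shHKDC1 the shares called higher and lower were 8.48% and 24.3% of named genes and 8.03% and 12.2% of all features. In shRBBP5 they were 2.48% and 9.31% of named genes and 1.79% and 2.76% of all features. The list was made by symbol and took in SP140L, which is not a C2H2 protein and was among the 4.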

How the data were processed

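RNA of 3 libraries was analysed from the deposited table of estimated counts (expected counts), which are unscaled for library size and length. The submitters' processing notes list the build hg19 and the tools StringTie 1.3.4, HISAT2 2.2.1 and DESeq2 1.28.1, but not what each did. Sources used here do not give the annotation, the counting tool or whether strand was used. Columns named NTC, shHD and shRB were matched to the titles by these abbreviations. The table's 43704 rows held 16301 anonymous loci, which were given no names, and 19383 coding RefSeq rows. Of the latter 19354 matched a symbol in RefSeq GRCh38.p14 without the version number, and they were summed to 6962 symbols. Of the 139 members, 136 had every coding transcript on a row, and ZNF235, ZNF800 and ZNF841 did not. Reads of members within anonymous loci were not looked for. Rows were summed per symbol whatever their leading row, and in 59 of the 100 members with several rows the leading row differed between libraries. Of the 139 members, 65 had a coding row of at least 100 units in 1 library and 0 in another.

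TMM factors (edgeR 4.0.16, R 4.3.3) from all features came to 1.083 (NTC), 0.894 (shHKDC1) and 1.033 (shRBBP5). Ratios used a pseudocount of 0.5 units. Intervals take 4 units, the most frequent low value of the table, as 1 fragment, which is an assumption. As no molecular identifiers are named, reads may repeat a molecule. The call rule was run on simulated counting noise that makes the same assumption of 4 units per fragment. The simulation held no variation between libraries, so it cannot show how the calls fare under such variation. Other steps used Python 3.11.15, NumPy 2.4.6, SciPy 1.17.1 and pandas 2.3.3. Genes named were up to 8 called members each way per comparison with the largest ratios, those called in both knockdowns, the 5 most abundant, and 3 on each side of the CPM limit; others were named after their values were seen. Members, lists and rules were chosen with earlier results of these data known. Planned protein classes were to come from RefSeq proteins and were taken instead from GENCODE v29 coding sequences by patterns. Alternatives were total counts, DESeq2 1.42.0 size factors, upper quartiles, other CPM limits, a pseudocount of 5, 1 unit per read, complete symbols, noncoding rows added, and no CPM limit without symbols at 0.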

Additional observations from a re-analysis of the deposited data

Results flagged for a closer look

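Noncoding RefSeq rows of family symbols were outside the member values, and 14 symbols had them at a mean of at least 1 CPM. Against NTC, 6 were called higher and 3 lower in shHKDC1, and 3 higher and 3 lower in shRBBP5. As a background, the same rule picked out 8.03% (higher) and 12.2% (lower) of the 13464 features with the HKDC1 knockdown. With the RBBP5 knockdown the rule picked out 1.79% (higher) and 2.76% (lower) of these features. Rows of ZNF616 were at 0 in NTC, and against the floor of 3 fragments there the log2 ratio was at least 5.27 in shHKDC1 and at least 3.33 in shRBBP5. Noncoding rows of ZNF211 were higher in shHKDC1 (1.284) and in shRBBP5 (1.51), as were those of ZNF30 (1.03 and 1.07). In shHKDC1 the noncoding row of ZNF229 (1.03, but −1.07 and called lower in shRBBP5), the pseudogene ZNF818P (1.07) and the antisense gene ZNF561-AS1 (1.31) were higher. The counting is not stated to use strand, so reads of ZNF561-AS1 and of its partner cannot be told apart. Called lower were ZNF248 in shHKDC1 (−2.36), the pseudogene ZNF37BP in both (−1.202 and −1.21), ZNF783 in shRBBP5 (−1.26) and ZNF778 in shHKDC1, where its row was at 0. These values have no replicate check, and both knockdowns are set against the same NTC library.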

How the results depend on the processing

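Each unit taken as 1 read, complete symbols only, a pseudocount of 5 and noncoding rows added kept every count of members within 1.5 times and every median within 0.1. Total counts, which moved the median of all features in shHKDC1 over NTC from −0.03 to −0.31, gave 32 members lower and a median of −0.563 there. In the direct comparison total counts gave 3 higher and a median of −0.186, and upper-quartile factors a median of 0.136. Relative to all features the shHKDC1 median of members was −0.28 with TMM and −0.26 with total counts. DESeq2 size factors and upper-quartile factors each gave 2 higher in shHKDC1. With a mean CPM of at least 5, which left 29 members, shHKDC1 over NTC had 0 higher, 4 lower and a median of −0.448, shRBBP5 over NTC 0 lower and −0.082, and the direct comparison 0 higher, 2 lower and −0.232. With no CPM limit, 225 symbols gave 7 higher and a median of −0.136 in shHKDC1, 1 higher and 15 lower in shRBBP5, and 18 higher and 0.222 in the direct comparison. Symbols at 0 in both libraries (26 in shHKDC1 over NTC, 31 in the direct comparison) enter these medians with a ratio set by the pseudocount alone, and without them, an alternative added after seeing the data, the medians were −0.305 and 0.080, with the same counts. With noncoding rows added, an alternative chosen after seeing the data, ZNF616 turned from lower to a ratio of 0.43 in the direct comparison. No paired analysis was possible because each group has 1 library. Depth limits single genes most in shHKDC1, where the median member had 73 fragments.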
